A study of Mus musculus with 4 samples.

Results

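The 37 genes of the mouse mitochondrial chromosome were followed by RNA-seq in stem cells of the hair follicle. They were taken as every row of the deposited table whose gene symbol begins with mt-, which gave 2 ribosomal RNA genes, 13 messenger RNA genes and 22 transfer RNA genes out of 55401 genes in all. The cells came from C57BL/6 mice whose follicles were in anagen, when hair grows. One group had received a high-fat diet (HFD) for 4 months and the other a normal diet (ND), with 2 libraries per diet. No genotype or agent other than the diet is named, and the labels give neither age, sex, cell isolation nor the number of mice behind each library. The p-values therefore reflect variation between libraries alone, and that variation may be technical.

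Mitochondrial DNA is a small circle that is transcribed from both strands into long precursors. Most genes lie on the strand written here as plus, and the transfer RNAs sit between the other genes, where their excision releases the ribosomal and messenger RNAs. The messenger RNAs encode core subunits of respiratory complexes I, III, IV and V, and the ribosomal RNAs and transfer RNAs serve the organelle's own ribosomes. Stretches of the circle have also been copied into nuclear chromosomes during evolution, so that a read from such a stretch can match more than one place in the genome.

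Sequences of mitochondrial genes are shown first, beside those of annotated nuclear copies. All are written 5′ to 3′ on GRCm38 from GENCODE M21 transcripts. The complex I gene mt-Nd3 differed from its chromosome 1 copy Gm28438 at 1 of 345 aligned bases. It is shown in capitals in the first 300 bases (chrMT:9459-9758, plus strand, and chr1:24612820-24613119, minus strand) and written T3C, with the mitochondrial base first, then its position from the first base of mt-Nd3, then the base of the copy.
mt-Nd3: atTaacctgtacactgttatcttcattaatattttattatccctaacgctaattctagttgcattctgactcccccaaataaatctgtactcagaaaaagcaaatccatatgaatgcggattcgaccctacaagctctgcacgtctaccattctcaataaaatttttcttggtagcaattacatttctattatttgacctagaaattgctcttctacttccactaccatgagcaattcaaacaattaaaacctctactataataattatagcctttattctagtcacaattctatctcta
Gm28438: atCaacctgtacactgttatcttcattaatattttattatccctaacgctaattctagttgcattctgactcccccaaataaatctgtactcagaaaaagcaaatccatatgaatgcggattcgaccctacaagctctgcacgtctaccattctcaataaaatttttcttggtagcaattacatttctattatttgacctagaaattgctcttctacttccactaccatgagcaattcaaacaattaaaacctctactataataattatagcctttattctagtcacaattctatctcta
The complex IV gene mt-Co3 had no difference at all from its chromosome 1 copy Gm28437 over 783 aligned bases, of which the first 120 are given (chrMT:8607-8726, plus strand, and chr1:24613852-24613971, minus strand).
mt-Co3: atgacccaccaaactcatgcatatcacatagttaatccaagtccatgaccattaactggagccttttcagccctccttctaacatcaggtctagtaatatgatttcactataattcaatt
Gm28437: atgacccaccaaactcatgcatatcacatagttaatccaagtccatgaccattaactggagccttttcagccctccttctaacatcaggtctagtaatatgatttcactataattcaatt
Copies on other chromosomes carried more differences, in capitals. They are shown for the first 120 bases of the complex IV gene mt-Co1 (chrMT:5328-5447, plus strand) against Gm13340 (chr2:22589528-22589647, minus strand), with 3 differences. For the cytochrome b gene mt-Cytb, bases 2 to 120 (chrMT:14146-14264, plus strand) are set against Gm11410 (chr4:80003990-80004108, plus strand), with 7 differences.
mt-Co1: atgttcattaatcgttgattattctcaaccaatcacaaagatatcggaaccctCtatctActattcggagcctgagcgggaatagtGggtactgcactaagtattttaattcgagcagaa
Gm13340: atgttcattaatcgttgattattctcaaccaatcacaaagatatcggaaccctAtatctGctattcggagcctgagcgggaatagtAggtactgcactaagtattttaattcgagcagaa
mt-Cytb: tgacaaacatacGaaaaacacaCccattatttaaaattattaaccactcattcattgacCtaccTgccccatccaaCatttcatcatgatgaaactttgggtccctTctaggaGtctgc
Gm11410: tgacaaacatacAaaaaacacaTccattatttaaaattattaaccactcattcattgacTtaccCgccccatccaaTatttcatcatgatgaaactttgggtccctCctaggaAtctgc

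Library totals lay between 8590570 and 9940848 counts. All 9 listed hair follicle stem cell markers were detected. The basal keratin Krt14 was the 1 called by edgeR, and rose with the high-fat diet, where 1.35% of all genes tested were called. An unadjusted edgeR p under 0.05 was found for 6 of the 9, against 1922 of all 14479 genes tested. Among the 6, Krt14, Itga6, Krt15 and Krt5 had positive log2 fold changes of 0.70, 0.45, 0.34 and 0.30. Lhx2 and Nfatc1 had negative ones of -0.49 and -0.27. DESeq2 called 2 of the markers, Krt14 as higher and Lhx2 as lower, and 394 of the 14479 genes. Of the 9 log2 fold changes 4 were positive and 5 negative, with a median of -0.13, while the sum, carried by the keratins Krt5, Krt14 and Krt15, came to 20147 and 18696 CPM in HFD libraries against 14282 and 16279 CPM in ND libraries. Summed markers of fibroblasts stood at 80.7 and 64.7 CPM (counts relative to the scaled library size) in HFD libraries against 44.97 and 56.5 CPM in ND libraries. Leukocyte markers summed to 43.3 and 50.1 CPM in HFD libraries against 20.2 and 36.2 CPM in ND libraries, and endothelial markers to 15.2 and 20.0 CPM in HFD libraries against 8.45 and 11.5 CPM in ND libraries. Melanocyte markers summed to 21.2 and 12.7 CPM in HFD libraries and 26.4 and 12.7 CPM in ND libraries. Of the tested markers of these 4 cell types, 0 were called by edgeR or by DESeq2 (adjusted p under 0.05). Unadjusted, 2 of 6 tested fibroblast markers and 2 of 5 tested leukocyte markers had an edgeR p under 0.05. The adipocyte genes Adipoq, Plin1 and Cfd and the muscle genes Myh4 and Tnnt3 had 0 counts in all 4 libraries. Muscle markers summed to 0.833 and 1.20 CPM in HFD libraries against 2.91 and 2.20 CPM in ND libraries. The erythroid and adipocyte lists stayed below 2 CPM and the sebocyte list below 6 CPM in each library. The part of other cell types in the results that follow was not tested.

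Mitochondrial transcripts took a larger share of the library with the high-fat diet. The 37 genes together held 15.1% and 15.8% of counts in HFD libraries, against 12.1% and 11.9% in ND libraries. The means were 15.5 ± 0.523% with the high-fat diet and 11.99 ± 0.146% with the normal diet (SD, n = 2 each), a ratio of 1.29. Both HFD libraries stood above both ND libraries, and the difference of 3.48 percentage points exceeded the spread within each diet. Counting error was small beside this spread, since the widest exact 95% interval (Clopper-Pearson) of a library spanned 0.0489 points, which covers counting error only. The sum over chosen genes was given no test. In bulk RNA a larger share can come from more mitochondrial RNA per cell, from more cells rich in it or from less RNA of other kinds, and these cannot be told apart here.

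The ribosomal RNAs carried nearly all of this share. They held 13.8% and 14.3% of all counts in HFD libraries, against 10.96% and 10.8% in ND libraries. The 13 messenger RNAs held 1.35% and 1.59% in HFD libraries, against 1.13% and 1.05% in ND libraries, with means of 1.47 ± 0.165% and 1.09 ± 0.0615% (SD, n = 2 each) and a ratio of 1.35. The same ratio for ribosomal RNA was 1.28. For each 100 ribosomal RNA counts there were 9.85 and 11.1 messenger RNA counts in HFD libraries, against 10.3 and 9.65 in ND libraries, so the diets overlapped in this balance. Transfer RNAs were nearly absent from the table. All 22 together had 61 and 117 counts in HFD libraries and 105 and 125 counts in ND libraries, and the diets overlapped in their share.

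**Figure D1:**
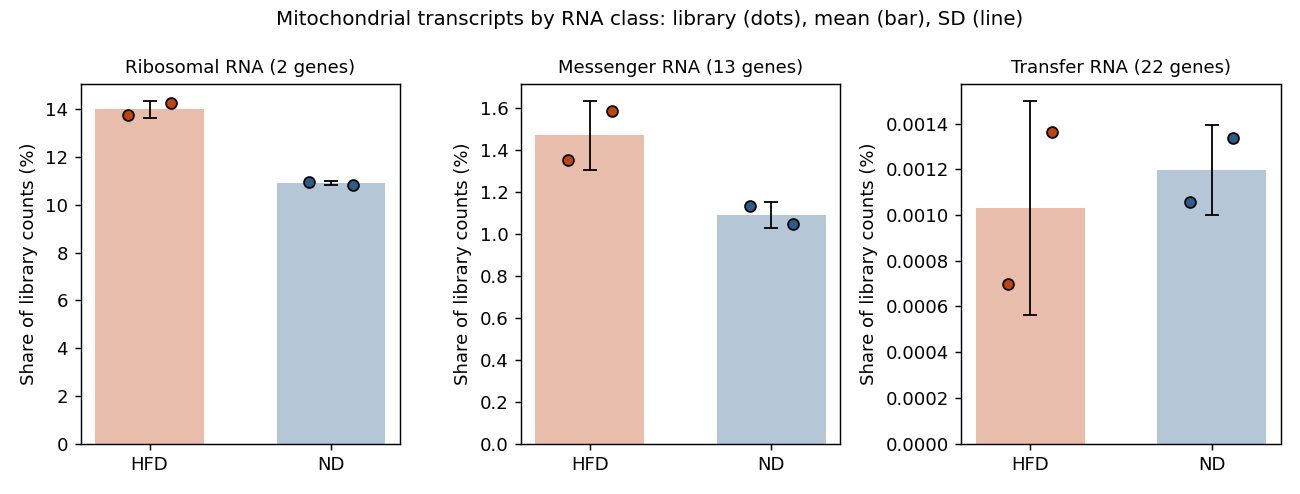
Share of all library counts (%) held by mitochondrial ribosomal, messenger and transfer RNA in HFD and ND libraries; dots are libraries, bars are means and lines are SDs (n = 2 per diet), and each panel has its own axis from 0. HFD libraries sit above ND libraries for ribosomal RNA (13.8% and 14.3% against 10.96% and 10.8%) and messenger RNA, whereas the transfer RNA values overlap.

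Nuclear features that resemble cytosolic ribosomal RNA held 10.8% and 9.99% of counts in HFD libraries and 9.43% and 11.1% in ND libraries, which overlap. Among them, Gm23935 held 9.12% and 8.48% of counts in HFD libraries against 8.31% and 9.89% in ND libraries. CT010467.1 held 1.71% and 1.50% in HFD libraries against 1.12% and 1.23% in ND libraries, and it rose by a log2 fold change of 0.54 ± 0.10 (SE; edgeR adjusted p = 0.033). Gm24187, the remaining such feature, had a log2 fold change of 0.42 ± 0.17 (SE; edgeR adjusted p = 0.319). The part of these features in the mitochondrial shares was not tested. The labels do not say whether messenger RNA was selected or ribosomal RNA removed.

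Along the mitochondrial chromosome the levels fell into a high part, a deep trough and a high part again. Per length, the 6 genes from mt-Co2 to mt-Nd4l had mean levels between 1.50 and 59.3 FPKM (the authors' count per exonic length and library total) in HFD libraries and between 1.76 and 44.5 FPKM in ND libraries. The other 6 plus-strand messenger RNAs had means between 813 and 2846 FPKM in HFD libraries and between 575 and 2204 FPKM in ND libraries. No gene of the trough came near the lowest of the others in any library. The trough genes together made up 0.447% and 0.384% of mitochondrial messenger RNA counts in HFD libraries and 0.439% and 0.376% in ND libraries, so its depth overlapped between the diets. These genes share precursors with their neighbours.

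**Figure D2:**
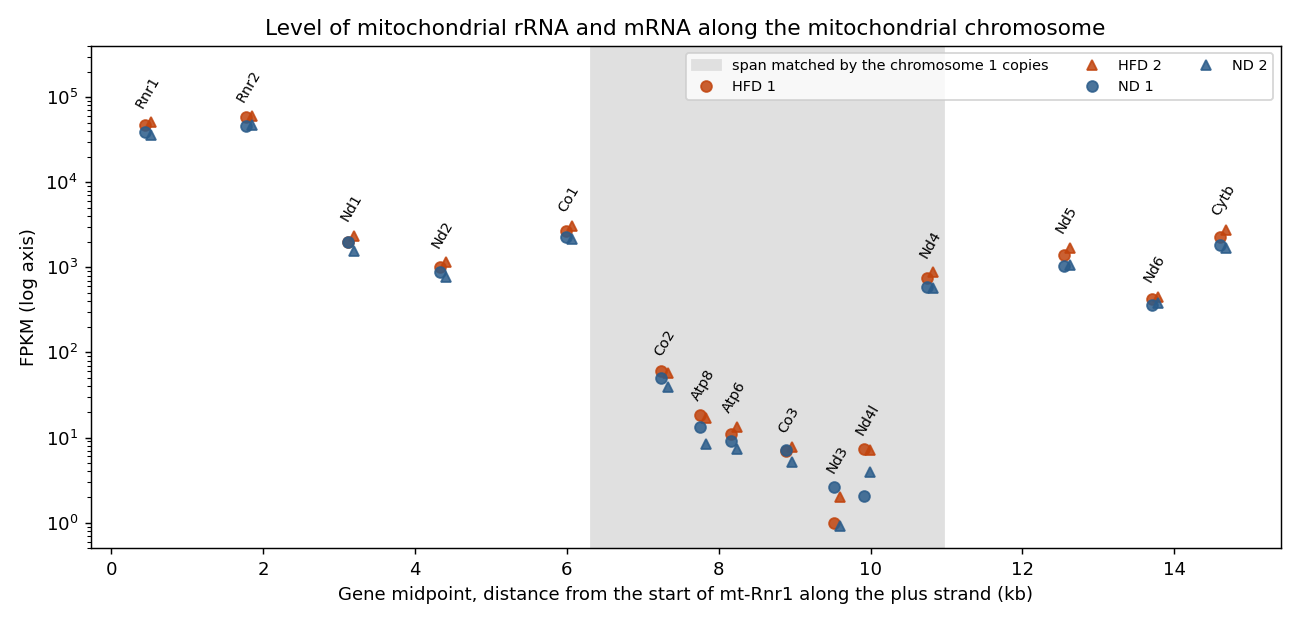
FPKM on a log axis for each mitochondrial ribosomal and messenger RNA in each library, against the distance of the gene's midpoint from the start of mt-Rnr1 in kilobases; the shaded span is the one matched by near-identical copies on chromosome 1. Genes from mt-Co2 to mt-Nd4l lie within the shaded span, with FPKM means in HFD libraries of 59.3 or less, against 813 or more for the other plus-strand messenger RNAs. Of these others mt-Nd4, at 813, also has its midpoint in the shaded span but extends beyond it.

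The trough coincided with sequence that has near-identical copies on chromosome 1. In a search of all GENCODE M21 transcripts at 90% identity or more over at least 50 bases, 7 annotated pseudogenes between positions 24611535 and 24616197 of chromosome 1 matched the mitochondrial span from 6390 to 11042. The copies of mt-Co2, mt-Atp6, mt-Co3 and mt-Nd4l were identical to them over the whole aligned length of 681, 678, 783 and 294 bases. Gm28439 was identical to the first 876 bases of mt-Nd4 and left 502 bases of it outside. Gm29216 matched the last 483 bases of mt-Co1 with 1 difference, written A1066T, and left 1062 bases outside. mt-Atp8 overlaps mt-Atp6 by 43 bases and lies inside the span, with no annotated copy of its own among the hits. How reads that fit several places were counted is not given in the sources used here, and its part in the trough was not tested.

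The chromosome 1 copies held few counts, with 1 exception. Gm28438, the copy that differs from mt-Nd3 at the single base shown above, had 381 and 396 counts in HFD libraries and 353 and 337 in ND libraries. mt-Nd3 itself had 3 and 6 counts in HFD libraries and 9 and 3 in ND libraries. For this pair the nuclear copy thus held far more counts than the mitochondrial gene in every library, at nearly the same length. Gm28437, with no difference from mt-Co3, had 30 and 40 counts in HFD libraries and 49 and 20 in ND libraries, beside 47 and 52 against 56 and 38 for mt-Co3. The other copies on chromosome 1 had between 7 and 47 counts in any library. Among copies on other chromosomes, Gm13340, which is 97.6% identical to mt-Co1 over its whole length, had 12 and 10 counts in HFD libraries and 7 and 15 in ND libraries. Gm11410, at 92.9% identity to mt-Cytb, had 0 in all 4. A stretch of 71 bases in a retained-intron transcript of Cep295 on chromosome 9 was 91.5% identical to the transfer RNA gene mt-Tn. Cep295 as a whole had 776 and 891 counts in HFD libraries and 1174 and 928 in ND libraries, whereas mt-Tn had 0 in all 4. The log2 fold change of Gm28438 was 0.41 ± 0.18 (SE; edgeR adjusted p = 0.336). Of the 6 chromosome 1 copies tested 0 were called by edgeR or DESeq2, which called 195 and 394 of all 14479 genes tested. Only 1 of the 6 had an unadjusted edgeR p under 0.05, against 1922 of the 14479 genes. Since reads of these pairs cannot be assigned with certainty, the separate values of mt-Co2, mt-Atp8, mt-Atp6, mt-Co3, mt-Nd3 and mt-Nd4l are uncertain.

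**Figure D3:**
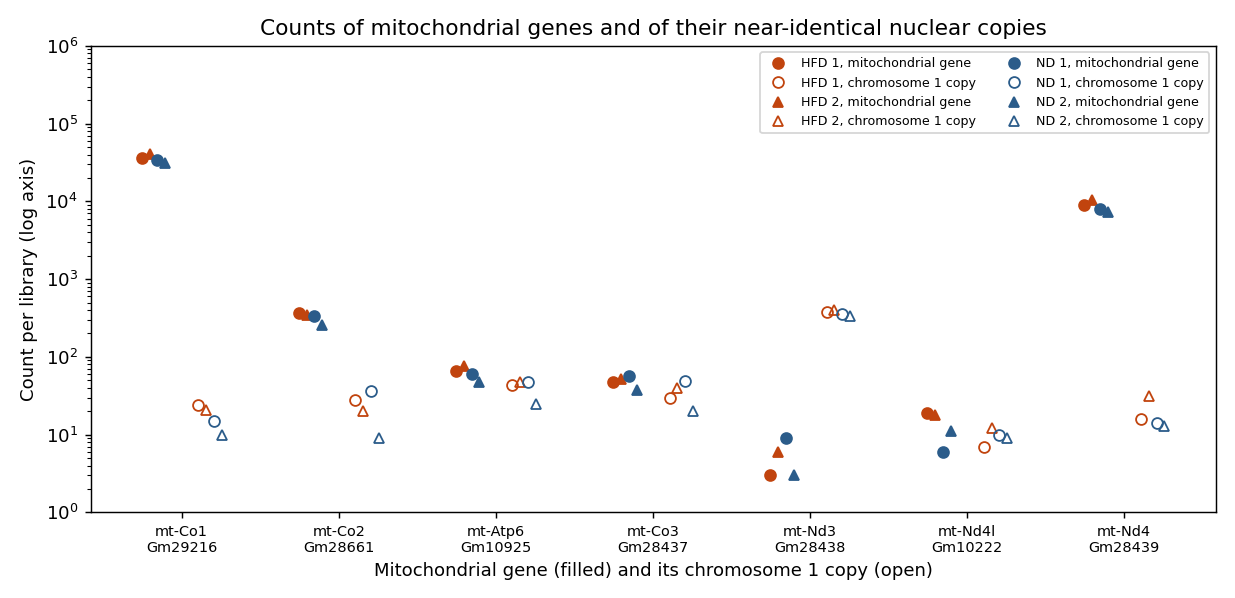
Counts per library on a log axis for 7 mitochondrial genes (filled) and their chromosome 1 copies (open), in chromosomal order. For mt-Nd3 the copy lies above the mitochondrial gene (381 and 396 counts in HFD libraries against 3 and 6), and for mt-Co1 and mt-Nd4, which extend beyond the copied span, the mitochondrial gene lies far above its copy.

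The diets were then compared gene by gene. Of the 37 genes 16 passed the count filter, namely both ribosomal RNAs, 12 messenger RNAs and 2 transfer RNAs, and 21 did not. A gene could pass through the libraries of 1 diet alone, so a count over those that passed does not describe all members. With the high-fat diet 5 rose and 0 fell, in a comparison that called 1.35% of the 14479 genes tested, 1.12% as higher and 0.228% as lower (edgeR quasi-likelihood test, Benjamini-Hochberg adjusted p under 0.05). They were mt-Rnr1, mt-Rnr2, mt-Nd4, mt-Nd5 and mt-Cytb. The median log2 fold change was 0.48 over the 16 genes and 0.00 over all genes tested. In CPM both HFD libraries exceeded both ND libraries for all 14 tested ribosomal and messenger RNAs, a separation in this direction that 22.7% of all genes tested showed. In FPKM, which carry no scaling beyond the library total, mt-Nd1 and mt-Co3 overlapped.

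The only negative value, that of mt-Ty, had an unadjusted p of 0.253.

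These calls rested on all 4 libraries. Without ND library 1, without ND library 2 or without HFD library 2, 0 members were called, with 0, 3 and 58 genes called in all and 1488, 2403 and 1192 at an unadjusted edgeR p under 0.05, and without HFD library 1 only mt-Nd5 was (adjusted p = 0.046). Without ND library 1 the adjusted p was 0.464 for each of the 5 genes. All 5 log2 fold changes stayed positive in these 4 settings.

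The ribosomal RNAs form the cores of the mitochondrial ribosome. mt-Rnr1, the small subunit RNA (positions 70 to 1024), had 46677 and 49661 CPM in HFD libraries, against 35809 and 33513 CPM in ND libraries. It rose 1.39-fold, with a log2 fold change of 0.47 ± 0.09 (SE; edgeR adjusted p = 0.027). mt-Rnr2, the large subunit RNA (positions 1094 to 2675), had 96236 and 96805 CPM in HFD libraries, against 70031 and 72801 CPM in ND libraries. The libraries of a diet lay close together for this gene, which rose 1.35-fold (log2 fold change 0.43 ± 0.08 SE; edgeR adjusted p = 0.026). The number of mt-Rnr1 counts per mt-Rnr2 count was 0.485 and 0.513 in HFD libraries and 0.511 and 0.460 in ND libraries, so the diets overlapped in this balance.

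Of the complex I genes, which encode membrane subunits of NADH dehydrogenase, mt-Nd5 and mt-Nd4 rose. mt-Nd5 (positions 11742 to 13565) had 2649 and 3185 CPM in HFD libraries, against 1841 and 1886 CPM in ND libraries. The HFD libraries differed more from each other than the ND libraries did, and both lay well above them. Its log2 fold change of 0.65 ± 0.12 (SE; edgeR adjusted p = 0.025), a 1.57-fold rise, was the largest among the 5 genes called. mt-Nd4 (positions 10167 to 11544) had 1066 and 1248 CPM in HFD libraries, against 778 and 763 CPM in ND libraries, and rose 1.50-fold (edgeR adjusted p = 0.038).

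mt-Nd1 and mt-Nd2, the complex I genes next to the ribosomal RNAs, did not pass the test. mt-Nd1 had 1969 and 2317 CPM in HFD libraries, against 1831 and 1442 CPM in ND libraries. ND library 1 came close to HFD library 1, and the log2 fold change of 0.39 ± 0.14 (SE; edgeR adjusted p = 0.233) was 0.57 without ND library 1 and 0.22 without ND library 2. mt-Nd2 had 1095 and 1220 CPM in HFD libraries, against 880 and 776 CPM in ND libraries, with a log2 fold change of 0.48 ± 0.12 (SE; edgeR adjusted p = 0.082). Other fits did call them. mt-Nd2 was called by DESeq2 (adjusted p = 0.0057), with no filter beyond 1 count and with a mean FPKM of at least 1. mt-Nd1 was called with no filter beyond 1 count (edgeR adjusted p = 0.020). mt-Nd4l, with 19 and 18 counts in HFD libraries against 6 and 11 in ND libraries, had a log2 fold change of 1.34 with an SE of 0.87. mt-Nd3 was too low to be tested.

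mt-Nd6, the only messenger RNA on the minus strand (positions 13552 to 14070), encodes another complex I subunit. It had 228 and 241 CPM in HFD libraries, against 182 and 194 CPM in ND libraries. Its log2 fold change of 0.32 ± 0.12 (SE) did not pass (edgeR adjusted p = 0.281). Per 100 counts of mt-Nd5, its neighbour on the other strand, mt-Nd6 had 8.61 and 7.56 counts in HFD libraries and 9.90 and 10.3 in ND libraries. The diets did not overlap in this ratio, which was lower with the high-fat diet. It carries no test. Because mt-Nd5 had the largest log2 fold change of the genes called, 0.65, a lower ratio does not mean that mt-Nd6 fell. mt-Nd6 and mt-Nd5 overlap by 14 bases, and whether reads were counted by strand is not given in the sources used here. Reads of 1 strand therefore cannot be told from those of the other.

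mt-Cytb encodes cytochrome b, the mitochondrial subunit of complex III (positions 14145 to 15288). It had 2724 and 3240 CPM in HFD libraries, against 2035 and 1886 CPM in ND libraries. It rose 1.52-fold, with a log2 fold change of 0.61 ± 0.12 (SE; edgeR adjusted p = 0.033). In complex IV, mt-Co1, the catalytic subunit of cytochrome c oxidase, was the most abundant messenger RNA per length, at 2667 and 3024 FPKM in HFD libraries and 2245 and 2163 FPKM in ND libraries. In CPM it had 4282 and 4800 in HFD libraries, against 3349 and 3276 in ND libraries. Its log2 fold change of 0.46 ± 0.10 (SE) missed the threshold (edgeR adjusted p = 0.061). It was called by DESeq2, with a robust prior and under both other count filters.

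The remaining complex IV genes and those of ATP synthase lay in the trough. mt-Co2 had 362 and 341 counts in HFD libraries against 336 and 254 in ND libraries, and a log2 fold change of 0.50 ± 0.20 (SE; edgeR adjusted p = 0.285). mt-Co3 had 47 and 52 counts in HFD libraries against 56 and 38 in ND libraries, with a log2 fold change of 0.32 ± 0.46 (SE; edgeR adjusted p = 0.829) that was 0.57 without ND library 1 and 0.12 without ND library 2. For ATP synthase, mt-Atp6 had 65 and 77 counts in HFD libraries against 61 and 47 in ND libraries, and mt-Atp8 had 33 and 30 against 27 and 16. Their log2 fold changes of 0.64 ± 0.40 and 0.80 ± 0.63 (SE) had edgeR adjusted p of 0.542 and 0.656, and that of mt-Atp8 was 0.51 without ND library 2. At these counts a change of the size seen in mt-Nd5 was not detectable for mt-Atp8, mt-Atp6, mt-Co3 and mt-Nd4l, whose standard errors lay between 0.40 and 0.87.

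**Figure D4:**
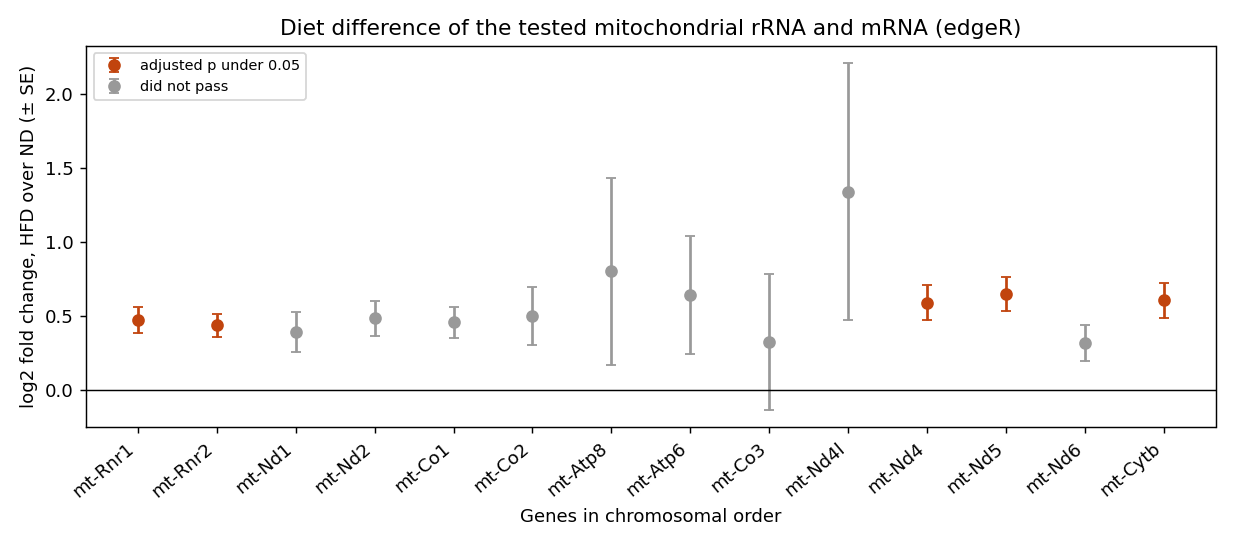
Log2 fold change, HFD over ND, with its standard error for the 14 tested ribosomal and messenger RNAs in chromosomal order; colour marks an edgeR adjusted p under 0.05. All 14 values are positive, the 5 called genes lie between 0.43 and 0.65, and the widest errors belong to genes of the low-count span.

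The 13 messenger RNAs stood in the same order of mean level per length in both diets. In HFD libraries mt-Co1 stood at 2846 ± 253 FPKM, mt-Cytb at 2524 ± 330, mt-Nd1 at 2168 ± 267, mt-Nd5 at 1549 ± 214, mt-Nd2 at 1080 ± 90.8, mt-Nd4 at 813 ± 97.2 and mt-Nd6 at 437 ± 20.2 (SD, n = 2). In ND libraries mt-Co1 stood at 2204 ± 58.1 FPKM, mt-Cytb at 1762 ± 114, mt-Nd1 at 1760 ± 315, mt-Nd5 at 1050 ± 6.49, mt-Nd2 at 820 ± 81.9, mt-Nd4 at 575 ± 14.5 and mt-Nd6 at 373 ± 12.99 (SD, n = 2). Neighbours in this order from mt-Co1 to mt-Nd1 lay within their joint spread in HFD libraries, and mt-Cytb and mt-Nd1 did so in ND libraries. The FPKM of mt-Co1 and mt-Nd4 divide by a length that includes the copied part.

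By position, the tested plus-strand messenger RNAs beyond the trough had larger log2 fold changes than those before it, whereas mt-Nd6 on the minus strand, at 0.32, lay below them all. Log2 fold changes were 0.39 ± 0.14, 0.48 ± 0.12 and 0.46 ± 0.10 (SE) for mt-Nd1, mt-Nd2 and mt-Co1. For mt-Nd4, mt-Nd5 and mt-Cytb they were 0.59 ± 0.12, 0.65 ± 0.12 and 0.61 ± 0.12 (SE), so several differences between the groups were about as large as these errors. The 5 tested trough genes lay between 0.32 and 1.34, and mt-Co1 and mt-Nd4 reach into the copied span. Over the 8 plus-strand genes with at least 1000 counts on average, the fold change followed gene position with a Spearman rho of 0.76 and a Pearson r of 0.88, given as a description since these genes share libraries and precursors. Within a library, the counts of mt-Nd4, mt-Nd5 and mt-Cytb per count of mt-Nd1, mt-Nd2 and mt-Co1 came to 0.877 and 0.921 in HFD libraries, against 0.768 and 0.825 in ND libraries. This ratio needs no scaling between libraries and did not overlap between the diets. Its means were 0.899 ± 0.0311 with the high-fat diet and 0.797 ± 0.0405 with the normal diet (SD, n = 2 each). Counts of mt-Nd5 per mt-Co1 count were 0.619 and 0.664 in HFD libraries, against 0.5499 and 0.576 in ND libraries. The groups of genes were formed with the fold changes in view, so these ratios carry no test.

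**Figure D5:**
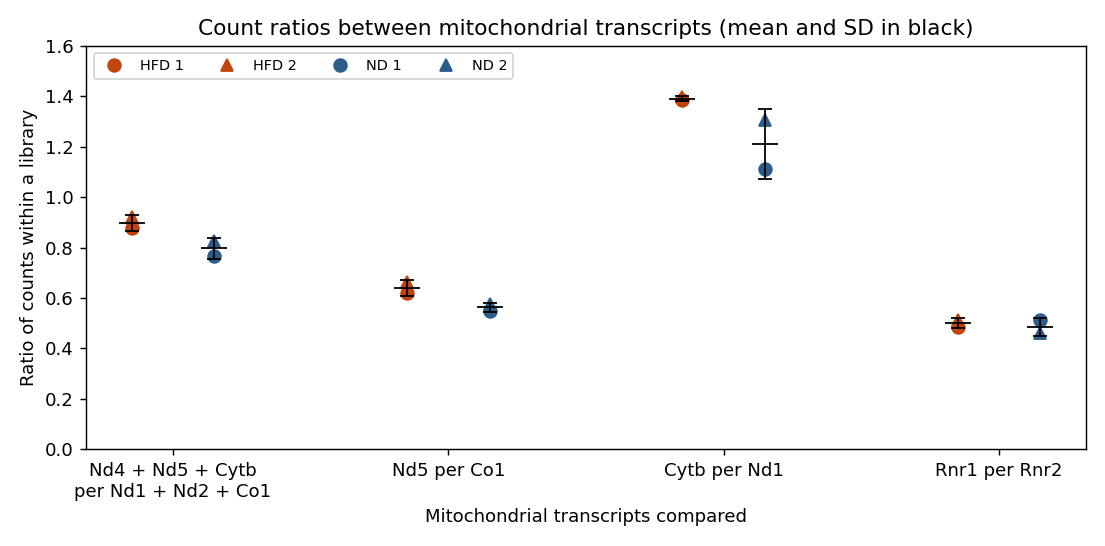
Ratio of counts between mitochondrial transcripts within each library, for HFD and ND libraries, with mean and SD in black (n = 2 per diet). The ratio of genes beyond the trough to genes before it is 0.877 and 0.921 in HFD libraries against 0.768 and 0.825 in ND libraries, whereas mt-Rnr1 per mt-Rnr2 overlaps.

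Transfer RNAs carry amino acids to the mitochondrial ribosome and are among the shortest genes of the table. Of the 22, 10 had 0 counts in all 4 libraries, where a count of 0 allows up to 3 counts, or between 0.291 and 0.359 CPM, for counting error only. The 8 on the minus strand held 51 and 106 counts in HFD libraries and 95 and 121 in ND libraries, while the 14 on the plus strand held 10 and 11 counts in HFD libraries and 10 and 4 in ND libraries. The 3 with the most counts, mt-Ty for tyrosine, mt-Tp for proline and mt-Tq for glutamine, all lie on the minus strand. They are shown with mt-Tl1 for leucine, which lies on the plus strand between the abundant mt-Rnr2 and mt-Nd1 (positions 2676 to 2750) and had 1 and 0 counts in HFD libraries and 0 and 0 in ND libraries. Capitals mark the anticodon, and T is written for U.
mt-Ty: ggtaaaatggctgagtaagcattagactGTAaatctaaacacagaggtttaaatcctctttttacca
mt-Tp: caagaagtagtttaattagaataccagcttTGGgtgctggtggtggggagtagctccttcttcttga
mt-Tq: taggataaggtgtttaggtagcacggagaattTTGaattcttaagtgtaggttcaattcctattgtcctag
mt-Tl1: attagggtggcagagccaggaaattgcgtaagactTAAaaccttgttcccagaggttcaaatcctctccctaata
mt-Ty (positions 5260 to 5326) had 42 and 68 counts in HFD libraries, against 83 and 98 in ND libraries. In CPM these were 4.997 and 8.13 with the high-fat diet and 8.06 and 10.3 with the normal diet, which overlap, and its log2 fold change of -0.48 ± 0.40 (SE; edgeR adjusted p = 0.673) was the only negative one among the tested genes. It was -0.17 without HFD library 1, -0.87 without HFD library 2 and -0.30 without ND library 2. mt-Tp had 2 and 19 counts in HFD libraries and 8 and 13 in ND libraries, and mt-Tq 5 and 18 against 0 and 9. The other transfer RNAs had 6 counts or fewer in any library. Neither mt-Ty nor mt-Tp passed the test, and the direction of mt-Tp changed with the fit.

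Most lists of nuclear genes that act on the mitochondrial genome held no called gene. Of 20 tested genes of mitochondrial DNA transcription and replication 0 were called, of 34 for RNA processing, modification and decay 0, of 12 translation factors 0 and of 10 regulators of biogenesis 0, in the comparison that called 1.35% of all genes. DESeq2 called 0 in each of these lists, and 394 of all 14479 genes tested. In the 4 lists 2, 1, 1 and 1 genes had an unadjusted edgeR p under 0.05, against 1922 of the 14479 genes. Polrmt, the mitochondrial RNA polymerase, had 207 and 229 counts in HFD libraries, against 360 and 412 in ND libraries, with a log2 fold change of -0.59 ± 0.21 (SE; edgeR adjusted p = 0.235). Mrm3, a methyltransferase of mitochondrial ribosomal RNA, had 49 and 36 counts in HFD libraries, against 107 and 110 in ND libraries (edgeR adjusted p = 0.222). The elongation factor gene Tsfm had 53 and 84 counts in HFD libraries, against 160 and 123 in ND libraries (edgeR adjusted p = 0.339). The coactivator Pprc1 had 57.4 ± 2.75 CPM with the high-fat diet and 84.3 ± 9.31 CPM with the normal diet (SD, n = 2 each; edgeR adjusted p = 0.131). Of 80 tested mitochondrial ribosomal protein genes, the protein partners of mt-Rnr1 and mt-Rnr2, 0 were called by edgeR or DESeq2 and 3 had an unadjusted edgeR p under 0.05. Their median log2 fold change was -0.18, and Mrpl46, with the smallest p, had 70 and 91 counts in HFD libraries against 174 and 168 in ND libraries (edgeR adjusted p = 0.232). For the 4 lists before it, in the order given, the medians were -0.18, -0.03, -0.09 and -0.07, beside 0.00 over all genes. Positive and negative values numbered 6 and 14, 13 and 21, 5 and 7, and 5 and 5 in these lists, and 22 and 58 for the ribosomal proteins. The genes named had the smallest p of their list, and all were negative. Of the genes with the next smallest p, Mterf3, Nsun4, Mtfmt and Sirt3 had positive log2 fold changes of 0.67, 0.94, 0.52 and 1.06. Dna2, Fastkd3, Gfm1, Gabpb1, Mrpl18 and Mrpl11 had negative ones of -0.75, -0.72, -0.24, -0.41, -0.44 and -0.67. In a comparison that called 1.35% of all genes, 0 calls in lists of 10 to 80 genes say nothing particular about these groups. The lists were given no test as lists.

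Among the 17 mitochondrial aminoacyl-tRNA synthetases, which charge the transfer RNAs, 1 rose. Lars2, the leucine enzyme, had 6364 and 5467 counts in HFD libraries, against 3964 and 4133 in ND libraries, with a log2 fold change of 0.79 ± 0.13 (SE; edgeR adjusted p = 0.015). The summed level of the list, 1090 and 958 CPM in HFD libraries against 748 and 772 CPM in ND libraries, was mostly Lars2, and 12 of the 17 had negative log2 fold changes. Of 84 tested genes listed as nuclear subunits of complexes I to V 1 rose and 0 fell, with a median log2 fold change of -0.07. This is 1 call in a comparison that called 1.35% of all genes, so the count says nothing particular about the group. The gene was Ndufa4l2, listed here under complex I but a relative of the cytochrome oxidase subunit gene Ndufa4. It had 192 and 207 counts in HFD libraries against 55 and 69 in ND libraries (log2 fold change 1.92 ± 0.29 SE, edgeR adjusted p = 0.012).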

How the data were processed

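RNA-seq was measured in 4 libraries, grouped by the diet in their titles. The submitters' processing notes list HISAT2 2.0.1, cutadapt 1.9.1 and bcl2fastq 2.17.1.14 with no role, and per the labels' protocols total RNA was column-purified. Neither the counting program nor the build, nor how strand and multi-mapping reads were treated, is stated in the labels. The authors deposited raw counts per gene and FPKM values in 1 table. All 221604 deposited FPKM values equalled count divided by exonic size and column total within 0.00500. The coordinates of all 37 members were those of GENCODE M21, so positions are given on GRCm38.

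Counts were tested in R 4.3.3 with edgeR 4.0.16 (quasi-likelihood, TMM factors between 0.965 and 1.04, default filter, which asks for about 10 counts in 2 libraries and 15 in all; 14479 genes kept) and adjusted over all genes tested. The fit had a common biological coefficient of variation of 20.3% and was tested on simulated data. SEs are the log2 fold change divided by the root of F. CPM use the TMM-scaled library size. Alternatives used DESeq2 1.42.0 and limma 3.58.1 on log2(FPKM + 1), other scalings and filters, the omission of single libraries and a fit blocked on replicate number. Every ribosomal and messenger RNA was named, and each transfer RNA with a mean of at least 10 counts. Nuclear lists of mitochondrial genes are represented by their called genes or else the genes with the smallest p. mt-Tq, mt-Tl1 and the cell type markers named one by one, and Malat1 and Rn7sk, were chosen after their values were seen. Copies were searched with BLAST 2.17.0. The members and lists were chosen with earlier results of these data known. Gm10222 and the copies outside chromosome 1 were added after the sequence search.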

Additional observations from a re-analysis of the deposited data

How the results depend on the processing

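Of 224 log2 fold changes of the 14 tested ribosomal and messenger RNAs under 16 alternatives, 224 were positive. The count of 5 mitochondrial transcripts called became 3 with library totals, 0 with equal sums of TPM (which Gm23935 dominates, with 79.6% to 82.8% of summed FPKM), 8 with no filter and 0 with limma at either pseudocount (2 genes called in all). Under equal TPM 91 genes were called in all, against 195, with no filter 633 and with DESeq2 394. Leaving out 1 library gave 0 to 1 transcripts and 0 to 83 genes called. The titles number the libraries but do not say that numbers pair them, and deviations of replicate 1 did not correlate between the diets (r = -0.0046 over 14479 genes). The replicate block gave 3 transcripts (mt-Nd4, mt-Nd5 and mt-Cytb; adjusted p 0.092 for mt-Rnr1 and 0.137 for mt-Rnr2) and 419 genes, and put mt-Tp at -0.21. The cause of these differences was not tested. Of the genes called, 162 were higher and 33 lower, against 132 and 65 with library totals, 88 and 3 with equal TPM, 408 and 225 with no filter, 275 and 119 with DESeq2 and 308 and 111 with the block.

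The log2 fold change of mt-Tp also turned negative with limma (-0.45 with a pseudocount of 1 and -0.56 with 0.1) and without ND library 1 or HFD library 2 (-0.11 and -2.10), and reached 1.08 without HFD library 1. The log2 ratio of the mitochondrial share, 0.37, was 0.44 relative to nuclear counts other than ribosomal RNA-like ones, and that of ribosomal RNA was 0.43 against 0.36. Leaving out 1 library gave 0.33 to 0.40 for the whole share, 0.33 to 0.39 for ribosomal RNA, 0.31 to 0.54 for messenger RNA and -0.78 to 0.19 for transfer RNA. The log2 ratio of the genes beyond the trough to those before it, 0.17, was 0.10 as a share of all messenger RNA and 0.12 to 0.23 without 1 library. Low counts limited the comparison of the trough genes and the transfer RNAs, most of which had under 100 counts. The cause of these low counts was not tested.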

Other observations

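Of 9 tested abundant nuclear noncoding RNAs 0 were called by edgeR or DESeq2 (adjusted p under 0.05), which called 195 and 394 of all 14479 genes tested. Unadjusted, 2 of the 9, Kcnq1ot1 and Neat1, had an edgeR p under 0.05, against 1922 of the 14479 genes. With 9 genes, these counts say nothing particular about the group. Kcnq1ot1, an antisense RNA of an imprinted locus, had 774 and 1049 counts in HFD libraries and 825 and 695 in ND libraries, with a log2 fold change of 0.51 ± 0.17 (SE; edgeR adjusted p = 0.207). Neat1, the scaffold of paraspeckles, had 1527 and 2607 counts in HFD libraries and 1465 and 1734 in ND libraries, with a log2 fold change of 0.61 ± 0.22 (SE; edgeR adjusted p = 0.241). The nuclear-retained Malat1 had 29982 and 45557 counts in HFD libraries and 29283 and 40165 in ND libraries, and the libraries of a diet lay far apart. Its log2 fold change was 0.36 ± 0.20 (SE; edgeR adjusted p = 0.487). Rn7sk, which restrains transcription elongation, had 20521 and 18786 counts in HFD libraries and 21212 and 22940 in ND libraries. In CPM these were 2442 and 2247 against 2060 and 2401, which overlap, with a log2 fold change of 0.07 ± 0.11 (SE; edgeR adjusted p = 0.858).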
